A study of Rattus norvegicus with 35 samples.

Results

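Adding indole-3-carbinol (I3C) to the diet of dams dosed with bisphenol A at 25 µg/kg/day was examined in the mammary glands of their daughters. The comparison set the 5 arrays of the group BPA25+I3C against the 5 arrays of the group BPA25, which were 10 of the 35 arrays of the series. All probes other than control spots were read. A filter on dim probes and the choice of the brightest probe per gene then left 16148 genes. All animals were female Sprague-Dawley offspring taken on postnatal day 21, and total RNA of the abdominal left gland was hybridised to a 1-colour whole rat genome array, with 1 sample on each array. Dams of both groups received bisphenol A by gavage from gestational day 10 to 21, and dams of the group BPA25+I3C also received I3C at 2000 mg/kg chow, about 45.0 mg/kg/day. The control group was labelled negative control, and the groups BPA250 and BPA250+I3C repeated the same pair at 250 µg/kg/day. The groups BPA25+genistein and BPA250+genistein, whose dams ate genistein at 250 mg/kg chow (about 5.5 mg/kg/day), also entered the probe filter and the fit. No group with I3C alone was labelled, so the comparison holds I3C on top of bisphenol A only. The offspring came from different litters, the labels name no litter for an array, and the p-values measure the spread between these samples.

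I3C is a breakdown product of glucosinolates in cruciferous vegetables. In the stomach it condenses to compounds such as diindolylmethane, which bind the aryl hydrocarbon receptor (AhR), a transcription factor that induces cytochrome P450 and conjugating enzymes. Bisphenol A, a building block of polycarbonate, is a weak ligand of oestrogen receptors. The rat mammary gland at weaning is a branching epithelial tree, of luminal and myoepithelial cells, within a fat pad that lies under the skin close to sheets of striated muscle.

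Levels are given as the log2 of the background-subtracted signal relative to the 75th percentile of the probes of the same array, so that 0 is the 75th percentile. Differences are log2 fold changes, BPA25+I3C minus BPA25, ± the standard error of a limma fit over all 35 arrays, with p-values adjusted by Benjamini-Hochberg over 16148 genes. The median difference of all genes was 0.13, and a difference is best read against that value. It moved to -0.02 when the 75th percentile was taken over the probes above background on all arrays. Fat pad and epithelium were both present by their defining markers. Adipoq, which encodes adiponectin, was well above background on 5 of 5 arrays of both groups, and Krt18, a luminal keratin, on 5 of 5 BPA25 arrays and 4 of 5 BPA25+I3C arrays. The scanner called 94.8% of probes well above background on BPA25 replicate 2 (slide 3) and 69.0% on BPA25+I3C replicate 2 (slide 4), against 39.7% to 50.6% on the other 8 arrays. Only slide 9 held both groups, with BPA25 replicate 5 and BPA25+I3C replicate 4.

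Of the 16148 genes, 2 passed an adjusted p under 0.05. Both, Tnni1 and Myoz2, were lower with I3C (0.0124% of the genes tested), and 0 genes were higher. At an unadjusted p under 0.05, 421 genes were higher (2.61%) and 279 were lower (1.73%). At any p, 34.3% of all genes were lower and 10610 of 16148 were higher, and the list counts below are to be read beside these shares. Without BPA25 replicate 2, 8568 of 16148 genes were lower, and with slide as a fixed block 8085 were. The share of lower genes thus depended on that array and on the block. The arrays of both groups did not overlap for 81 genes that were higher with I3C (0.502%) and for 37 that were lower (0.229%). In simulated data of the same size the test recovered 20% of genes changed by 1 log2 unit, 80% of those changed by 2 and 94% of those changed by 3, and it made 11 false calls. The simulated noise was independent between arrays, with 1 SD per gene. It held no correlation within a slide (0.585 in the data) and no array of lower quality, so these rates need not apply to the real arrays.

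Tnni1 encodes the inhibitory subunit of troponin in slow-twitch muscle fibres. Its level on the 5 BPA25 arrays was 2.22, -0.66, 0.26, 1.49 and 1.35, and on the 5 BPA25+I3C arrays -4.52, -2.65, -4.14, -2.44 and -4.66. The groups were wholly apart, and the probe was well above background on all BPA25 arrays and on 0 of 5 BPA25+I3C arrays. Tnni1 fell by 4.62 ± 0.83 (log2, limma adjusted p = 0.0335). Because every BPA25+I3C array was at background, the fold is a bound: Tnni1 was at least 11.9-fold lower. That bound sets the BPA25 mean against, on each BPA25+I3C array, the higher of the probe's own signal and the lowest signal called well above background. It is a bound on the means of these arrays and carries no sampling error. In whole-gland RNA, fewer cells of a type and less RNA per cell cannot be told apart, and the labels do not record how much striated muscle was taken with each gland.

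Myoz2 encodes myozenin 2 (calsarcin), a protein of the Z-disc that binds calcineurin and is made in slow fibres and heart. Its level was 0.29, -0.84, -1.68, -0.65 and -0.80 on the BPA25 arrays and -4.87, -2.28, -4.65, -4.40 and -5.05 on the BPA25+I3C arrays. Again no BPA25+I3C array reached the lowest BPA25 array, and only 1 of 5 was well above background. Myoz2 fell by 3.51 ± 0.64 (log2, limma adjusted p = 0.0335). Neither call held with slide as a fixed block (Tnni1 -3.86 ± 0.96, Myoz2 -3.50 ± 0.71, adjusted p = 0.456 for each), and leaving out 1 array ended the call of Tnni1 in 7 of 10 cases and that of Myoz2 in 8 of 10 (adjusted p up to 0.254). The direction was the same under every alternative that kept the genes, at -1.85 and -0.92 with normexp background correction. With scan day as a block both passed (adjusted p = 0.0411 and 0.0191), and on slide 9, the only slide with both groups, the differences were -3.79 and -3.60. Within the 4 scan days shared by both groups, Tnni1 differed by -5.64, -4.90, -6.73 and -2.0, and Myoz2 by -3.99, -3.92, -5.16 and -1.44, with the last value of each from the day of the 2 brighter slides.

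The promoters of both called genes, and that of Actn2 (Z-disc alpha-actinin, described with the fast-fibre list), are shown because these genes were low together. Each is the 250 bases before the start in the RefSeq promoter table, assembly GRCr8, 5′ to 3′ on the strand of the gene. The E-box CANNTG, the core bound by MyoD-family and other helix-loop-helix factors, is in capitals. It reads the same way on both strands and includes CAGCTG.
Tnni1, chr13:49781279-49781528, plus strand: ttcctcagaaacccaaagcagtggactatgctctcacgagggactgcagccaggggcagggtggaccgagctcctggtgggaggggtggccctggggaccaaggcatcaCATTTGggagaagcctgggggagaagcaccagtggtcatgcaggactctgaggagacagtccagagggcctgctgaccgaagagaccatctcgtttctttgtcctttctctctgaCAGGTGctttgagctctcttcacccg
Myoz2, chr2:213852779-213853028, minus strand: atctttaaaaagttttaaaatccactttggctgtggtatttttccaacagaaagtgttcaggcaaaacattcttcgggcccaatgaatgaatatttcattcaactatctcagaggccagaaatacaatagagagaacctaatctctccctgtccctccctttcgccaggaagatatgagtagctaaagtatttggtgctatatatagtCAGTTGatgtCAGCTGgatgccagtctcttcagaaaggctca
Actn2, chr17:62834805-62835054, plus strand: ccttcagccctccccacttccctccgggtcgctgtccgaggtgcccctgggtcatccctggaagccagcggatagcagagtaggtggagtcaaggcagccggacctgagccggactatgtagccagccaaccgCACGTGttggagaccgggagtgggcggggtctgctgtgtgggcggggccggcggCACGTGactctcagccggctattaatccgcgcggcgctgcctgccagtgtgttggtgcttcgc
Each window held 2 E-boxes. They began 141 and 26 bases before the start in Tnni1, 42 and 32 in Myoz2, and 117 and 63 in Actn2. The same motif was in 10 of 12 promoters of the measured slow-fibre genes and in 65.5% of 33469 promoters of the table, so a match is common. CAGCTG was in 3 of the 12 and in 12.0% of all promoters.

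The slow-fibre list held 13 genes, of which 12 were measured. In all, 10 of the 12 were lower with I3C and 2 were higher, against 34.3% of all genes lower (without BPA25 replicate 2, 12 of 12 beside 8568 of 16148 genes), and the 10 lower genes were those at an unadjusted p under 0.05. Of the 12, 2 passed adjustment. The median difference of the list was -3.05, beside 0.13 over all genes. The filter bears on this count, since 7 of the 12 were well above background on at least 4 arrays of BPA25 but not of BPA25+I3C, and without any filter the same 12 genes had probes. With only probes above background on all 35 arrays, 3 members were left, 1 lower and 2 higher, with a median of 0.06.

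Csrp3, the muscle LIM protein of the Z-disc, had levels of 1.95, -1.30, -0.95, 1.99 and 0.53 on the BPA25 arrays and -3.34, -2.10, -3.75, -1.67 and -4.32 with I3C. These groups did not overlap either, and 0 of 5 BPA25+I3C arrays were above background. The difference of -3.48 ± 0.89 missed the threshold (limma adjusted p = 0.473), and the bound was at least 7.06-fold lower. Tnnt1, the slow fibre's tropomyosin-binding troponin, was at 2.02, -0.95, 0.88, 2.46 and 2.24 in BPA25 and at -1.71, -1.63, -3.51, -0.89 and -1.87 with I3C. Here BPA25 replicate 2 lay just under the highest I3C array, and the difference was -3.26 ± 0.76 (limma adjusted p = 0.294).

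Ankrd2, a stretch-responsive ankyrin repeat protein, differed by -2.84 ± 0.66 (limma adjusted p = 0.294), and Mb, the oxygen store myoglobin, by -2.52 ± 0.67 (limma adjusted p = 0.473). Myl3, a myosin light chain of slow and ventricular muscle, was at 2.48, 2.20, 0.80, 2.07 and 2.24 in BPA25 and at -3.55, 1.40, -3.27, -1.41 and -3.50 with I3C, where replicate 2 stood inside the BPA25 range. Myh7, the slow myosin heavy chain, ran from -0.01 to 4.25 in BPA25 and from -3.79 to 0.56 with I3C, a difference of -4.71 ± 1.22 (limma adjusted p = 0.473). The near-identical Myh6 gave -4.63 ± 1.10, and signal of these 2 paralogues on their probes cannot be told apart with certainty. Tpm3 and Atp2a2, a tropomyosin and a calcium pump that many other cells make, were the 2 members whose brightest probe was not lower, at 0.06 ± 0.68 and 0.16 ± 0.44, and both were below 0 with slide as a block (-0.77 and -0.30) and Tpm3 also with quantile scaling (-0.16). The 6 probes of Tpm3 disagreed: 5 lay between -0.35 and 0.51, and 1, above background on 5 of 5 arrays of both groups, was at -2.46 ± 0.57 (unadjusted p = 0.000142).

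**Figure D1:**
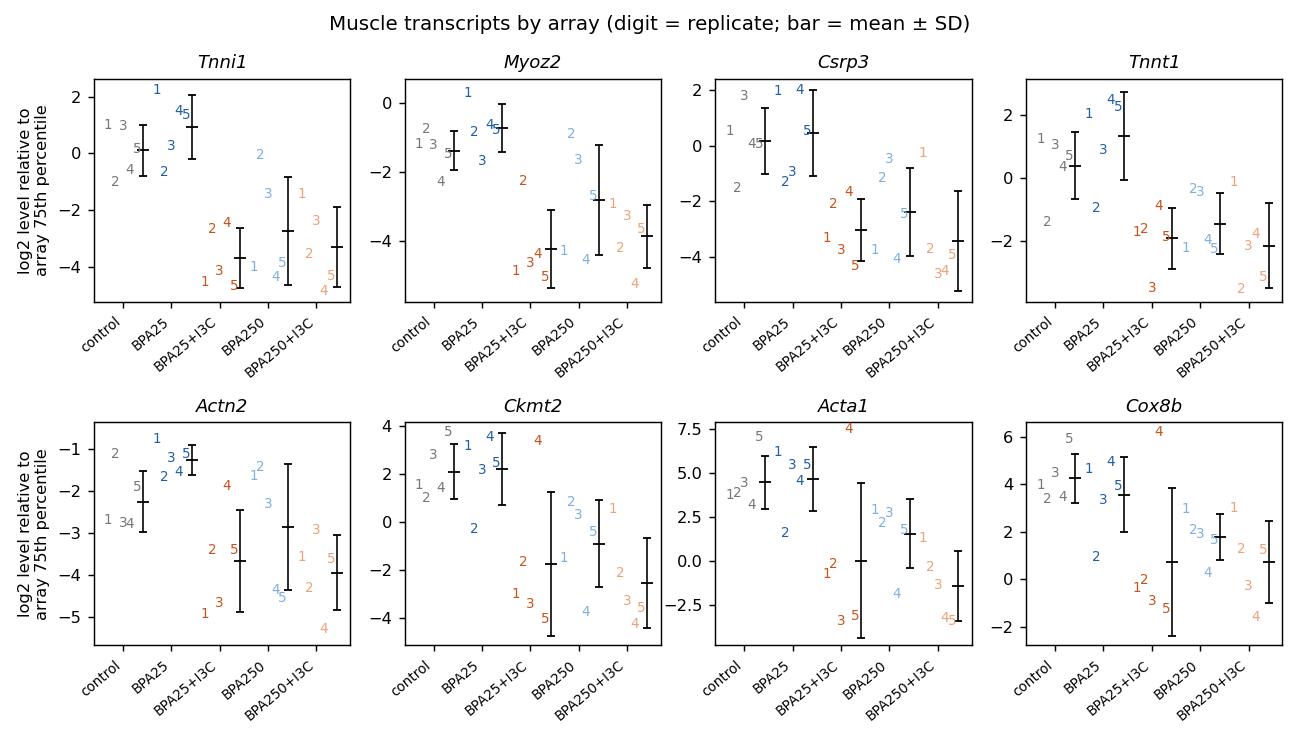
Log2 level relative to the array's 75th percentile for 8 striated-muscle genes (1 panel each) in 5 groups of 5 arrays, with each digit the replicate number of 1 array and the bar the mean ± SD. For Tnni1 the BPA25+I3C arrays sit between -4.66 and -2.44 and the BPA25 arrays between -0.66 and 2.22, whereas for Acta1 and Cox8b BPA25+I3C replicate 4 (7.45 and 6.20) lies above every BPA25 array.

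Fast-fibre and shared sarcomere genes were also lower on average, but not on every array. Of 27 listed genes 24 were measured, all 24 were lower and 22 were at an unadjusted p under 0.05, while 0 passed adjustment. Over all genes 34.3% were lower, and 1.73% were lower at that threshold. Without BPA25 replicate 2, 24 of 24 were lower beside 8568 of 16148 genes. The median difference was -3.21. Of the 24, 14 were well above background on at least 4 arrays of BPA25 but not of BPA25+I3C. Acta1, skeletal alpha-actin, was at 6.16, 1.55, 5.45, 4.52 and 5.42 in BPA25 and at -0.75, -0.18, -3.42, 7.45 and -3.11 with I3C. Of those I3C arrays 4 lay under all BPA25 arrays and replicate 4 lay above all of them, so the difference of -4.62 ± 1.51 came with an adjusted p of 0.903 (limma). Ckmt2, the mitochondrial creatine kinase of muscle, was at 3.38 on replicate 4, within the BPA25 range of -0.30 to 3.56, and at -4.05 to -1.68 on the other 4 arrays. Ckm, the cytosolic creatine kinase, reached 8.76 on replicate 4. Actn2 was the exception among the named genes, since its groups did not overlap (BPA25 -0.77, -1.67, -1.22, -1.54 and -1.12; BPA25+I3C -4.92, -3.41, -4.66, -1.89 and -3.41), with a difference of -2.40 ± 0.60 (limma adjusted p = 0.473).

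The mean over the slow-fibre list was 2.26, 0.21, 1.01, 2.18 and 1.73 on the BPA25 arrays and -1.83, -0.45, -2.13, -0.15 and -1.65 on the BPA25+I3C arrays. The slow-fibre means of both groups thus did not overlap. The mean over the fast and shared list was 3.45, 0.66, 3.18, 3.46 and 3.69 on the BPA25 arrays and -0.86, -0.11, -2.84, 5.04 and -2.10 with I3C. Replicate 4 therefore had the highest fast-fibre mean of the 10 arrays while its slow-fibre mean was under that of every BPA25 array. Without replicate 4 the median of the fast list was -4.78, 24 of 24 members were at an unadjusted p under 0.05 and 5 passed adjustment, and 22 genes passed in all. Leaving out BPA25+I3C replicate 3 or 5 instead left 6 or 7 of the 24 at an unadjusted p under 0.05. With slide as a fixed block, 1 of the 24 fast-fibre genes and 8 of the 12 slow-fibre genes were lower at an unadjusted p under 0.05, beside 3.85% of all genes.

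**Figure D2:**
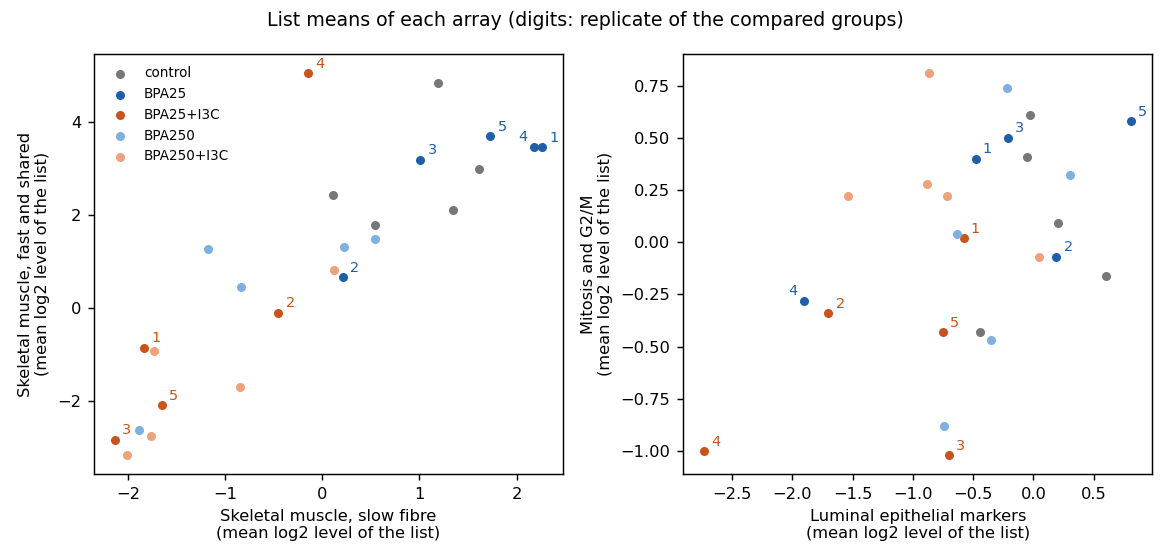
Mean log2 level of a gene list on each array, fast and shared against slow muscle genes on the left and mitotic genes against luminal markers on the right, with 5 groups of 5 arrays in colour and replicate digits on the compared groups. BPA25+I3C replicate 4 stands at 5.04 for fast and -0.15 for slow muscle genes, and at -2.73 for luminal markers.

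The other groups varied in the same genes. The slow-fibre list mean was 0.96 ± 0.61 in control, 1.48 ± 0.86 in BPA25 and -1.24 ± 0.88 in BPA25+I3C (SD, n = 5 each). It was -0.63 ± 1.00 in BPA250 and -1.25 ± 0.88 in BPA250+I3C. The genistein groups were low as well, at -0.96 ± 1.24 in BPA25+genistein and -0.92 ± 0.91 in BPA250+genistein. Myoz2 averaged -4.63 ± 0.98 and Tnni1 -2.21 ± 1.92 in BPA25+genistein. Tnni1 averaged 0.10 ± 0.90 in control and -2.73 ± 1.89 in BPA250. The effect of I3C on Tnni1 at the lower dose minus that at the higher dose was -4.05 ± 1.17 (unadjusted p = 0.00152, limma adjusted p = 1.0), so a difference between doses was not shown. Myogenic regulators gave no common direction: of 6 measured, 3 were lower and 3 higher, with a median of -0.18, and Myog was at -0.42, -2.19, -3.48, -0.14 and -1.09 in BPA25 and at -3.82, -2.45, -4.43, 1.88 and -4.28 with I3C. Myog and Myod1 were both highest on BPA25+I3C replicate 4, at 1.88 and 1.67.

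Luminal epithelial markers were lower on average with I3C, and 0 of them passed adjustment. Of 23 listed genes 16 were measured, 13 were lower (34.3% of all genes), 5 were at an unadjusted p under 0.05 (1.73% of all genes in that direction) and the median difference was -1.03. Without BPA25 replicate 2, 14 of 16 were lower beside 8568 of 16148 genes. Of the 16, 7 were well above background on at least 4 arrays of BPA25 but not of BPA25+I3C, and without the filter 19 of 23 were lower with a median of -0.69. Krt7, a keratin of simple ductal epithelium, was at -1.31, -0.00, -0.02, -1.45 and 0.87 in BPA25 and at -2.46, -4.00, -1.75, -3.60 and -1.47 with I3C. The highest I3C array lay just under the lowest BPA25 array, and the difference was -2.27 ± 0.58 (limma adjusted p = 0.473). Krt7 was well above background on 4 of 5 BPA25 arrays and 1 of 5 BPA25+I3C arrays, so its size with I3C is uncertain. Areg, amphiregulin, the epidermal growth factor ligand of ductal growth, was at -1.87, -0.56, -1.61, -4.27 and -0.48 in BPA25 and at -3.08, -3.39, -4.14, -4.19 and -2.42 with I3C. Here BPA25 replicate 4 was the lowest of all 10 arrays, and the probe was above background on 0 of 5 BPA25+I3C arrays. The bound on the means was 1.90-fold, and the groups overlapped (limma adjusted p = 0.932).

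Krt18 differed on 2 of the I3C arrays. Its level was 3.96, 4.19, 4.12, 1.31 and 5.36 in BPA25 and 4.27, -1.30, 4.08, -4.26 and 4.28 with I3C, a difference of -2.37 ± 1.02 (limma adjusted p = 0.999), with -1.56 on a second probe. Replicates 1, 3 and 5 of BPA25+I3C were inside the BPA25 range, and replicates 2 and 4 were far under it. Cdh1, the epithelial cadherin, split the same way, at -0.00, -3.30, -0.03, -4.71 and -0.17 with I3C. The luminal list mean was -0.48, 0.19, -0.21, -1.90 and 0.81 in BPA25 and -0.58, -1.70, -0.70, -2.73 and -0.75 with I3C. Those groups overlap, and the lowest array is the one highest in fast muscle transcripts; the part of muscle content in the epithelial values was not tested. Without BPA25+I3C replicate 4 the median was -0.64 with 2 members at an unadjusted p under 0.05, without BPA25 replicate 5 it was -0.72 with 2, and without BPA25 replicate 4 it was -1.50 with 10. Basal markers were lower in 7 of 9, median -0.33, with 0 at an unadjusted p under 0.05, and Krt14 and Krt5 differed by -0.83 ± 0.76 and -0.74 ± 0.60.

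Milk genes were not of one direction. Of 14 listed 7 were measured, 4 lower and 3 higher, with a median of -0.15. At an unadjusted p under 0.05 were 3 of the lower genes, beside 1.73% of all genes in that direction. The median ran from -1.20 (without BPA25 replicate 4) to 0.26 (without BPA25 replicate 3) when 1 array was left out. Lalba, alpha-lactalbumin of lactose synthase, was at 0.29, 2.03, 1.43, -1.05 and 3.22 in BPA25 and at -0.08, -4.79, 0.30, -4.30 and 0.95 with I3C. Again replicates 2 and 4 were the low I3C arrays, and the difference was -2.77 ± 0.89 (limma adjusted p = 0.854). Csn3, kappa-casein, which stabilises the micelle, was above background on 2 of 5 BPA25 arrays and 0 of 5 BPA25+I3C arrays, and was kept through other groups only. The bound on the means was 1.64-fold, with most BPA25 arrays at background too (limma adjusted p = 0.684). Csn1s1, an alpha casein, gave -1.88 ± 0.85, whereas Csn2, beta-casein, gave 0.28 ± 0.49, with levels of -1.22, -1.75, -0.61, -1.22 and -0.60 against -0.66, -0.17, -1.09, -1.40 and -0.65.

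**Figure D3:**
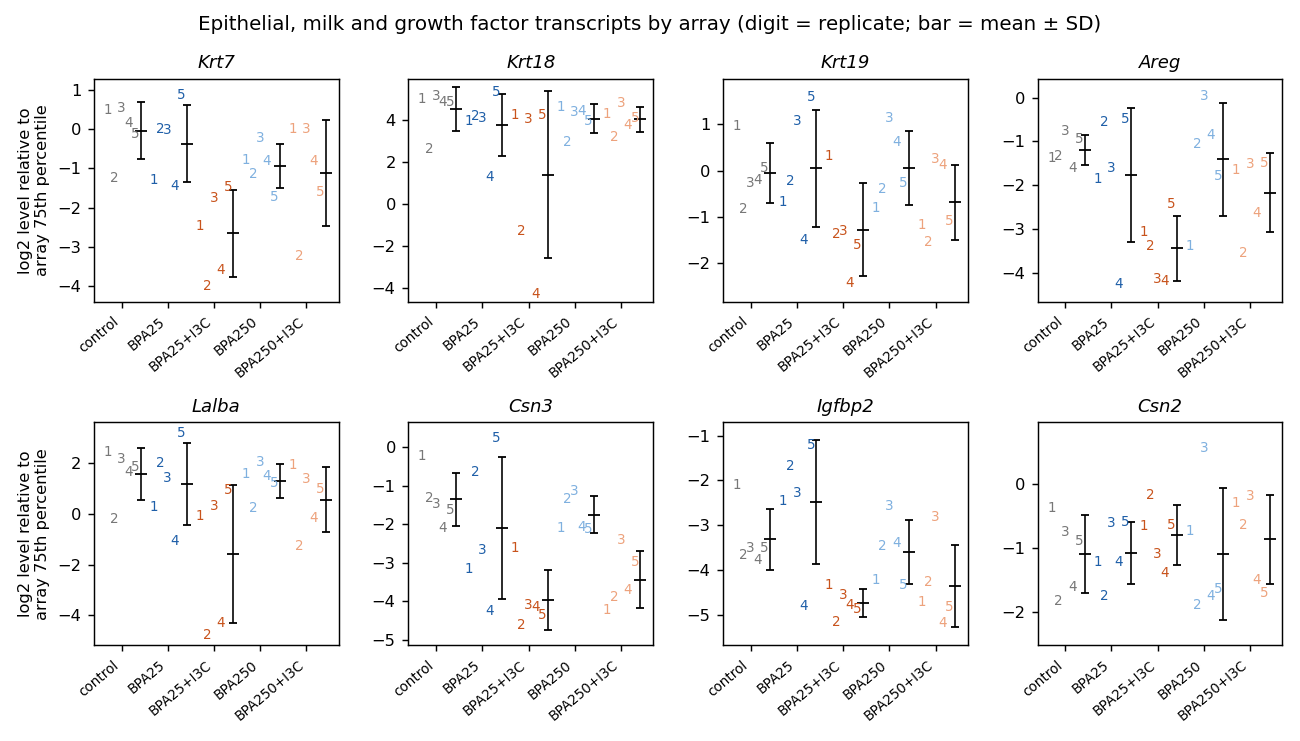
Log2 level relative to the array's 75th percentile for epithelial, milk and growth factor genes in 5 groups of 5 arrays, with digits for replicates and bars for mean ± SD. In Krt18 and Lalba the low BPA25+I3C arrays are replicates 2 and 4 (Krt18 -1.30 and -4.26), while Krt7 is lower on all 5 I3C arrays (-4.00 to -1.47) than on the 5 BPA25 arrays (-1.45 to 0.87).

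Mitotic genes were lower by small amounts and in 1 direction. These encode the cyclin B kinase, the spindle and kinetochore proteins and the anaphase machinery, which dividing cells make in G2 and M phase. Of 30 listed genes 26 were measured and all 26 were lower with I3C, 9 of them at an unadjusted p under 0.05 and 0 after adjustment. Beside this, 34.3% of all genes were lower, and 1.73% at an unadjusted p under 0.05. Without BPA25 replicate 2, 26 of 26 were lower beside 8568 of 16148 genes. The median difference was -0.79. Without the filter 29 of 29 were lower, with a median of -0.78. Ccnb1, cyclin B1, was at 0.28, -0.31, 0.27, -1.16 and 0.13 in BPA25 and at -0.69, -0.99, -1.69, -1.69 and -0.91 with I3C. All I3C arrays were under the 4 higher BPA25 arrays, and BPA25 replicate 4 lay among them, for a difference of -1.04 ± 0.36 (limma adjusted p = 0.938).

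Ccnb2, the second B-type cyclin, differed by -1.20 ± 0.46 (limma adjusted p = 0.983). Cenpf, a kinetochore protein, was at -0.78, -0.68, -0.82, -1.86 and -0.77 in BPA25 and at -0.62, -1.88, -3.37, -3.12 and -1.78 with I3C, where replicate 1 was as high as BPA25. Its difference was -1.18 ± 0.39 (limma adjusted p = 0.917), and a second probe gave -0.55 ± 0.41. Kif20a, a kinesin of cytokinesis, differed by -0.89 ± 0.33, and Mki67, the proliferation antigen Ki-67, by -0.94 ± 0.38. Cdk1 and Top2a, at -0.76 ± 0.45 and -0.54 ± 0.39, were among the 17 that missed an unadjusted p of 0.05. The list mean was 0.40, -0.07, 0.50, -0.28 and 0.58 in BPA25 and 0.02, -0.34, -1.02, -1.0 and -0.43 with I3C, so I3C replicate 1 stood among the BPA25 arrays. All 26 members were lower whichever array was left out, with 4 (without BPA25+I3C replicate 3 or 4) to 14 (without BPA25+I3C replicate 1) of them at an unadjusted p under 0.05. With slide as a fixed block 22 members were at that level and the median was -1.09, beside 3.85% of all genes and a median of -0.00 over all genes in that fit.

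Promoters of 3 mitotic genes are shown because such genes share motifs. Capitals mark CCAAT, the box bound by NF-Y, searched on both strands (ATTGG on the other), and TTTGAA, the core of the cell-cycle homology region, also on both strands.
Ccnb1, chr2:33655226-33655475, minus strand: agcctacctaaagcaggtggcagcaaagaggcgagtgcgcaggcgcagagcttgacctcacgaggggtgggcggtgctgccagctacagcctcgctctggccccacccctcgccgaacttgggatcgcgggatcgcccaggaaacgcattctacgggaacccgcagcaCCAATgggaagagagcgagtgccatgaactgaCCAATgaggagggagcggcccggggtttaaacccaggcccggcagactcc
Ccnb2, chr8:79981659-79981908, minus strand: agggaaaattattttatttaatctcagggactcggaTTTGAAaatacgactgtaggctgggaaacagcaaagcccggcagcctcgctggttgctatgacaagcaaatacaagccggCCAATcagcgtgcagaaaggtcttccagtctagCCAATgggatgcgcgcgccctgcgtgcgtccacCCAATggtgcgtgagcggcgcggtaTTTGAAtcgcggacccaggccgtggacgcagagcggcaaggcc
Cenpf, chr13:103760887-103761136, minus strand: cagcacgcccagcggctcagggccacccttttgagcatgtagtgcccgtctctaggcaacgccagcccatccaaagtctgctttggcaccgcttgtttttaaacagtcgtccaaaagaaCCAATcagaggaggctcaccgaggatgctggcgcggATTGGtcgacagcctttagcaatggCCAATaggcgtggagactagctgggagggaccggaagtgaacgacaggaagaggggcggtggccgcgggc
Ccnb1 held 2 CCAAT boxes, and Ccnb2 and Cenpf held 3 each. Those of Ccnb2 began 134, 101 and 68 bases before the start, and 1 of its TTTGAA matches began 43 bases before it. Among 23 mitotic genes with a promoter in the table, 19 held CCAAT and 13 held TTTGAA, beside 34.0% and 16.2% of all 33469 promoters. These shares describe the list and not the response to I3C.

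At the higher bisphenol A dose the mitotic genes were higher in mean with I3C. I3C added to BPA250 gave a median of 0.44 over the same 26 genes, with 24 of 26 above 0, beside a median of 0.24 and 69.8% above 0 over all genes. The difference between doses was tested gene by gene in the same fit. It was below 0 for 25 of 26 mitotic genes (59.2% of all genes), with a median of -1.24, and at an unadjusted p under 0.05 for 16, all of them lower at BPA25, beside 1.68% of all genes in that direction. No gene of the 16148 passed adjustment in this test, and 512 (3.17%) were at an unadjusted p under 0.05. BPA250 replicate 2, also on slide 3, had 94.9% of probes well above background and an array weight of 0.095. Without that array the median difference between doses over all genes was 0.08 instead of -0.10. Its mitotic list mean was -0.47, and the BPA250 arrays ran from -0.88 to 0.74. List counts without that array are not given. For Ccnb1 the difference between doses was -1.46 ± 0.50 (unadjusted p = 0.00652). Ccnb1 averaged -0.23 in control, -0.16 in BPA25, -1.19 in BPA25+I3C, -0.58 in BPA250 and -0.15 in BPA250+I3C, so the BPA25+I3C group was the low one of these 5. Low mitotic values were not particular to this group. The mitotic list mean was -0.55 ± 0.45 in BPA25+I3C, -0.37 ± 0.21 in BPA250+genistein and -0.10 ± 0.51 in BPA25+genistein (SD, n = 5 each). The S-phase list was lower in 19 of 20 genes, but by less, with a median of -0.21 and with Rrm1 (a ribonucleotide reductase subunit, -0.74 ± 0.25, with -0.63 and 0.32 on other probes) and Mcm6 (a replicative helicase subunit, -0.92 ± 0.38) at an unadjusted p under 0.05. The count of lower genes was 14 of 20 without BPA25 replicate 4 or BPA25+I3C replicate 3 and 13 with normexp (median -0.04), and the median was -0.42 without BPA25 replicate 2. The S-phase list mean was 0.02 ± 0.37 in BPA25+I3C, 0.15 ± 0.28 in BPA25+genistein and -0.13 ± 0.39 in BPA250+genistein (SD, n = 5 each). G1 cyclins, their kinases and inhibitors were higher in 14 of 14, with a median of 0.18, close to the 0.13 of all genes.

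**Figure D4:**
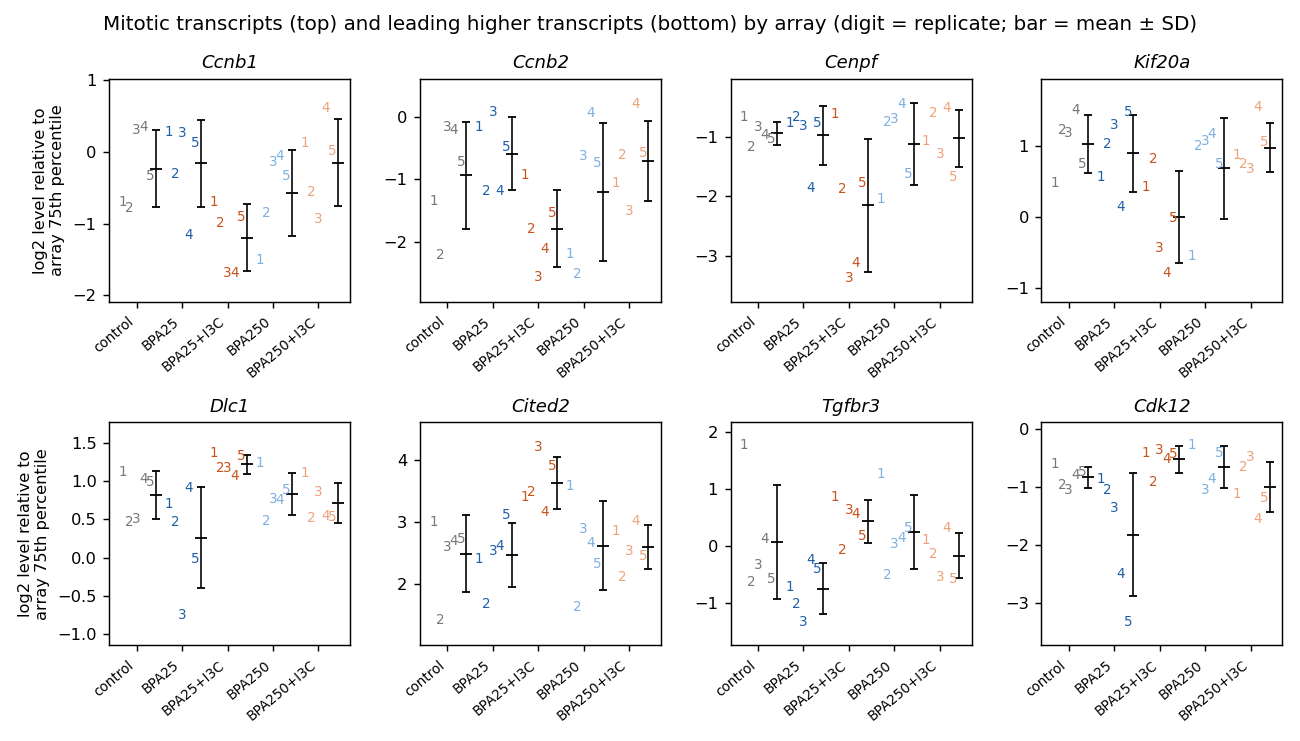
Log2 level relative to the array's 75th percentile for 4 mitotic genes (top) and 4 genes that were higher with I3C (bottom), in 5 groups of 5 arrays, with digits for replicates and bars for mean ± SD. Ccnb1 averages -1.19 in BPA25+I3C against -0.16 in BPA25, and all 5 BPA25+I3C arrays of Dlc1 (1.07 to 1.37) lie above the 5 BPA25 arrays (-0.75 to 0.91).

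Igfbp2, a binding protein that holds insulin-like growth factors, was among the lower genes outside muscle. It was at -2.46, -1.69, -2.29, -4.80 and -1.21 in BPA25 and at -4.34, -5.16, -4.56, -4.79 and -4.88 with I3C. All 5 I3C arrays and BPA25 replicate 4 were near or at background, and the groups overlapped. The difference was -2.26 ± 0.57 (limma adjusted p = 0.473) and the bound on the means was 1.25-fold. Of the 14 measured genes of the growth factor axis 11 were higher, with a median of 0.33, and Igfbp2 was the 1 at an unadjusted p under 0.05. Igfbp3, the main carrier in serum, differed by 0.67 ± 0.54.

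The named higher genes, limited to RefSeq symbols, were smaller in size than the lower muscle genes, and none passed adjustment. Over all genes tested the largest rise was 2.69. The array transcripts TC526455 and TC550080, without a RefSeq match, were called higher with the replicate block, slide as a random block and scan day as a block. Cdk12, a kinase of the RNA polymerase II tail, was at -0.86, -1.06, -1.36, -2.50 and -3.34 in BPA25 and at -0.41, -0.92, -0.36, -0.51 and -0.43 with I3C. The difference was 1.30 ± 0.33 (limma adjusted p = 0.473), I3C replicate 2 lay just under the highest BPA25 array, and the spread was in BPA25, whose SD was 1.06 against 0.22. Dlc1 was at 0.70, 0.46, -0.75, 0.91 and -0.02 in BPA25 and at 1.37, 1.17, 1.17, 1.07 and 1.33 with I3C. Its groups did not overlap (0.96 ± 0.26, limma adjusted p = 0.506), and a second probe gave 0.84.

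Cited2, a co-regulator that binds the coactivators CBP and p300, was at 2.40, 1.68, 2.53, 2.61 and 3.12 in BPA25 and at 3.41, 3.48, 4.20, 3.16 and 3.90 with I3C. The lowest I3C array was just over the highest BPA25 array, the difference was 1.16 ± 0.35 (limma adjusted p = 0.695), and its other 2 probes gave 0.99 and 1.04. Tgfbr3, the co-receptor betaglycan, was at -0.72, -1.01, -1.34, -0.25 and -0.41 in BPA25 and at 0.86, -0.07, 0.62, 0.56 and 0.18 with I3C, again with no overlap (1.18 ± 0.43, limma adjusted p = 0.962). Control averaged 0.82 ± 0.31 for Dlc1, 2.49 ± 0.62 for Cited2 and 0.07 ± 0.99 for Tgfbr3. Scgb3a1, a secretoglobin, gave 1.84 ± 0.56 and Tff1, the oestrogen-induced trefoil factor, gave 1.18 ± 0.41. Tff1 was well above background on 2 of 5 BPA25 and 4 of 5 BPA25+I3C arrays. Scgb3a1, Cdk12, Tasl and Gipc2 were so on 3 of 5 and 5 of 5. The oestrogen-responsive list, which holds Tff1, was lower in 6 of 9 measured genes with a median of -0.01. Without the filter 15 of 19 were lower, with a median of -0.17. The others of the 12 named higher genes (Ank2, Nat8, Akr1c15, Tasl, rnf141 and Gipc2) gave 0.74 to 1.37. Another kept probe of Ank2 gave a smaller rise (0.23 ± 0.30), and another probe of Gipc2, which did not pass the filter, gave -0.44 ± 0.50.

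AhR target genes, the pathway that I3C products are known for, showed little. Of 12 listed genes 6 were measured, 5 were higher and the median was 0.32, beside 0.13 over all genes, and without the filter 6 of 11 were higher with a median of 0.09. Lpcat2, a lysophospholipid acyltransferase of this list, was at -1.05, -1.24, -1.68, -0.82 and -0.88 in BPA25 and at 0.06, -0.76, -0.58, -0.80 and 0.20 with I3C. Its groups did not overlap, and it was the only member at an unadjusted p under 0.05 (0.76 ± 0.31, limma adjusted p = 0.999), and a second probe gave 0.27 ± 0.30. Cyp1b1, the AhR-induced cytochrome that hydroxylates oestradiol, was at -0.87, 1.13, -0.80, -0.70 and -0.12 in BPA25 and at -0.40, 0.77, -0.32, -0.61 and -0.37 with I3C. The highest array of each group was replicate 2, on the brighter slides, and the difference was 0.09 ± 0.44, with 0.55 on a second probe. The sign of the Cyp1b1 value changed between scalings (-0.05 with quantile). Tiparp, an AhR-induced ADP-ribosyltransferase, gave -0.13 ± 0.34.

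Transcripts of the receptors were near the limit of the arrays. Ahr was well above background on 6 of 35 arrays, its partner Arnt on 12 and Cyp1a1 on 13, and Cyp1a1 was so on 1 of 5 BPA25 and 2 of 5 BPA25+I3C arrays. Esr1 was above background on 10 of 35 arrays, Esr2 on 4, Gper1 on 8 and Nqo1 on 14. These probes did not pass the filter, and a fall in them could not be seen at this signal. In a fit without the filter Cyp1a1 differed by 0.76 ± 0.72, Nqo1 by -0.06 ± 0.53, Ahr by 0.07 ± 0.48 and Arnt by -0.21 ± 0.79. Esr1 differed by 0.18 ± 0.47, Esr2 by -0.15 ± 0.48 and Gper1 by 0.09 ± 0.73, so a rise was not shown for any of them. The promoter of Cyp1b1 is shown because the AhR acts through the core motif GCGTG, in capitals on either strand (CACGC on the other).
Cyp1b1, chr6:21094315-21094564, plus strand: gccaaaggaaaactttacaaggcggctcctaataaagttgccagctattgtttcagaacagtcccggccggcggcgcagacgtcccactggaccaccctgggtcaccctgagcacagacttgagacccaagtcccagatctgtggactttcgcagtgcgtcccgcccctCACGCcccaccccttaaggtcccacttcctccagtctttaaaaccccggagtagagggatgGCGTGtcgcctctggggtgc
It held 2 matches, 81 and 20 bases before the start, and 25.9% of all promoters held at least 1. Conjugating enzymes were higher in 14 of 19 genes, median 0.17, and Nrf2 targets in 8 of 11, median 0.05, with 0 at an unadjusted p under 0.05 in either list.

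Lipid genes of the fat pad were described by several lists. De novo fatty acid synthesis was lower in 12 of 15 genes with a median of -0.30, and 1 gene, Acss2, which makes acetyl-CoA from acetate, was at an unadjusted p under 0.05 (-0.95 ± 0.36). That median was -0.76 without BPA25 replicate 2 and -0.02 without BPA25 replicate 3, and with slide as a fixed block it was -1.12, with 9 of 15 lower at an unadjusted p under 0.05 beside 3.85% of all genes. With array weights 8 were, and 2 passed adjustment, in a fit that called 825 genes. Cholesterol synthesis had a median of -0.13 with 12 of 19 lower. For that list the difference between doses was below 0 in 19 of 19 genes (59.2% of all genes) with a median of -0.86. Mitotic and cholesterol genes were not alone in this. It was also below 0 in 29 of 29 oxidative phosphorylation genes (median -0.73), 12 of 12 heat shock genes (-0.43) and 8 of 9 erythroid genes (-1.19). Mast cell markers went the other way, with 1 of 9 below 0 (0.37). I3C added to BPA250 gave a median of 0.84 for cholesterol synthesis, beside 0.24 over all genes. The cholesterol list mean was 0.11 on BPA250 replicate 2 and 1.01 to 1.67 on the other BPA250 arrays. White adipocyte markers stood at 0.14 in the median (10 of 14 higher), with Adipoq at 0.42 ± 0.49. Of the brown fat list, Cox8b and Fabp3 were at an unadjusted p under 0.05, and both are also made by muscle. Fabp3, a fatty acid carrier, was at 1.80, 0.22, 0.71, 0.95 and 0.17 in BPA25 and at -1.22, 0.05, -1.39, 0.16 and -1.08 with I3C, just without overlap, and its difference between doses was -3.11 ± 0.73 (unadjusted p = 0.000169, limma adjusted p = 0.989). Ucp1, the uncoupling protein that defines brown fat, gave -0.83 ± 0.84.

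Fibroblast and collagen genes had a median of 0.10 (15 of 23 higher) and endothelial markers 0.17 (10 of 15). Macrophage markers were higher in 12 of 13 with a median of 0.41 and mast cell markers in 9 of 9 with a median of 0.42, beside 10610 of all 16148 genes. In either list 0 genes were at an unadjusted p under 0.05. The B cell list was higher in 3 of 3 measured genes (Fcer2, Cd79b and the cytokine gene Tnfsf13b) with a median of 0.76. Its mean overlapped widely, from -3.44 to -0.05 over the BPA25 arrays and from -2.85 to 0.53 with I3C. Neutrophil markers were lower in 3 of 4 with a median of -0.35. Cytosolic ribosomal proteins were higher in 31 of 32 with a median of 0.32, beside 10610 of 16148 genes and a median of 0.13 over all genes. With 1 array left out the median ran from 0.08 to 0.58 for macrophage, 0.15 to 0.54 for mast cell and -0.03 to 0.48 for ribosomal genes, each lowest without BPA25 replicate 2, and the B cell median was 0.07 without BPA25 replicate 1. In the macrophage, mast cell and ribosomal lists the lowest of the 10 arrays was BPA25 replicate 2 (macrophage 0.88, mast cell 0.02, ribosomal 5.57), the one of the 10 with most probes above background. T cell markers, which a lymph node in the pad would carry, were lower in 5 of 5 measured genes with a median of -0.50, but their mean ran from -2.17 to 2.19 over the BPA25 arrays and from -2.19 to 0.50 with I3C. Schwann cell and myelin markers were lower in 6 of 9 with a median of -0.39, and Mbp, myelin basic protein, gave -1.13 ± 0.55.

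**Figure D5:**
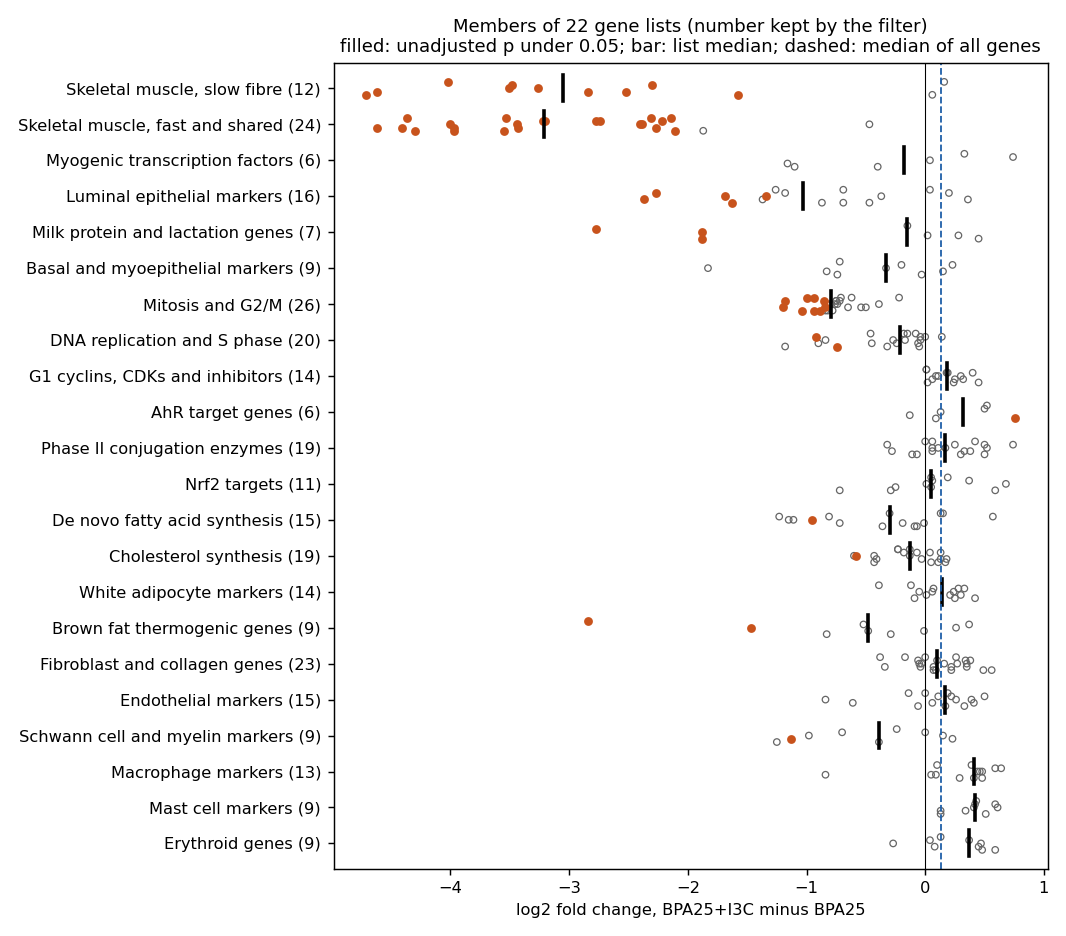
Log2 fold change (BPA25+I3C minus BPA25) of each measured member of 22 gene lists, with the list median as a bar, the median of all genes (0.13) as a dashed line, and members at an unadjusted p under 0.05 filled. Slow and fast muscle lists lie at medians of -3.05 and -3.21, luminal markers at -1.03 and mitotic genes at -0.79.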

How the data were processed

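Each array was deposited as spot-level output of Agilent Feature Extraction 9.5.3.1 (version per the submitters' processing notes). Per the file headers, the processed signal is an intensity with background subtracted and spatial and multiplicative detrending and surrogate values near background, without normalization between arrays, the mean and background signals are uncorrected intensities, and flags (other) mark outlying, saturated and well-above-background spots. The authors' deposited table holds log2 values with column medians of 6.55 to 6.58; its method is not given in the sources used here, and it served as an alternative.

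Processed signals were taken to log2 and centred on the array's 75th percentile. Outlier-flagged spots were set to missing, and spots of a probe were averaged. Of 41012 probes, 21307 matched the RefSeq gene table (GRCr8); the rest kept the array's names. A probe was kept when well above background on at least 4 of 5 arrays of at least 1 of the 7 groups, with at most 5 arrays missing, and the brightest probe stood for a gene, leaving 16148 genes (35471 without the filter). Group means over all 35 arrays were fitted with limma 3.58.1 (R 4.3.3), with 28 residual degrees of freedom. The fit was tested on simulated data with independent noise, in which it made 11 false calls. The precision is limited by the number of arrays.

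Genes named are those passing, the 12 per direction of smallest p with a log2 difference of 0.58 or more in size, up to 4 per list, receptors and AhR targets that were always looked up, and further list members chosen after their values were seen (Cdh1, Myl3, Tpm3, Atp2a2, Cdk1, Top2a, Mki67, Ckm, Mef2a, Ucp1). The gene lists and these choices were made with earlier results of these data known. Members are described by counts and medians, without set tests. Promoters came from the RefSeq table. Alternatives covered blocks, weights, background, scaling, filters, probes and each array left out.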

Additional observations from a re-analysis of the deposited data

Results flagged for a closer look

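In each group of 5 arrays, the highest and lowest array was set against Dixon's critical value for 236 combinations of a group with a named gene or list mean. Of these, 37 passed, where chance at 1 in 20 would give about 11.8. None of the differences between bisphenol A doses passed adjustment.

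BPA25 replicate 2, the one of the 10 compared arrays with most probes above background, was the low array for many list means: conjugating enzymes 0.99, Nrf2 targets 2.00, sterol sensing and efflux 1.22, triglyceride synthesis 2.25, white adipocyte markers 3.11, fast and shared muscle 0.66, fibroblast genes 3.97, pericyte markers 1.78, mast cell markers 0.02, macrophage markers 0.88, unfolded protein response 0.81, heat shock genes 2.40, oxidative phosphorylation 3.71 and DNA methylation and histone-modifying enzymes -0.14. The same array was lowest for Mybpc2 (-0.05), Ckm (2.59), Atp2a2 (2.52), Mef2a (0.59) and Cxcl13 (2.29).

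BPA25+I3C replicate 2, also from a brighter slide, was lowest for the list means of Nrf2 targets (3.00), macrophage markers (1.48), the unfolded protein response (1.51) and immediate early genes (0.21). It was lowest for Cdk12 (-0.92) and Tpm3 (4.61) and highest for Myoz2 (-2.28) and Cyp1b1 (0.77).

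BPA25+I3C replicate 4 was highest for Cox8b (6.20) and Myod1 (1.67) and lowest for Mylip (-3.58). BPA25+I3C replicate 1 was highest for Csn3 (-2.63) and lowest for the mean of fatty acid synthesis genes (2.90). BPA25 replicate 3 was lowest for Tff1 (-3.74), Myl3 (0.80) and the mean of myogenic factors (-2.44), and BPA25 replicate 4 for Cenpf (-1.86) and rnf141 (-1.23).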

How the results depend on the processing

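The count of 2 genes became 4 with the replicate block, 5 with scan day as a block, 12 without slides 3, 4 and 5, and 825 with array weights. It was 3 with slide as a random block, without Tnni1 (limma adjusted p = 0.0558). It was 1 with only the compared groups (Tnni1, with Myoz2 at 0.0517) and 1 with quantile normalization (Myoz2, with Tnni1 at 0.215). With the percentile over always-detected probes the 1 gene called was TC526455, higher with I3C, and Tnni1 (0.266) and Myoz2 (0.315) were not called. The count became 0 with slide as a fixed block, normexp, the authors' deposited table, no filter, only probes above background on all arrays, or outlier spots kept, and 0 to 22 when 1 array was left out (22 without BPA25+I3C replicate 4). The array weight was 0.155 for BPA25 replicate 2 and 0.480 for BPA25+I3C replicate 2. Tnni1 kept its direction at -1.85 with normexp and -2.65 in the authors' deposited table, and Myoz2 at -0.92 and -1.34. The count of genes whose I3C effect differed between doses, 0 in the main analysis, was 1 with slide fixed, 8 with slide random, 4 without slides 3 to 5 and 443 with array weights. The replicate numbers were not taken to pair animals: deviations of same-numbered arrays correlated at 0.233, 0.664, 0.174, 0.380 and -0.002.

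Signs turned for genes near 0. Cyp1b1 was -0.04 with scan day, -0.02 with normexp, -0.05 with quantile, -0.07 with the always-detected percentile, -0.01 in the authors' deposited table and -0.15 to 0.44 with 1 array left out. Tiparp was 0.08 with normexp and -0.37 to 0.02 with 1 array left out. Csn2 was -0.04 without slides 3, 4 and 5. Tpm3 was -0.77 with slide fixed, -0.56 with slide random, -0.09 without slides 3 to 5, -0.14 with weights, -0.16 with quantile, -0.09 with the always-detected percentile, -0.08 in the authors' deposited table, -0.35 with probes singly and -0.27 to 0.24 with 1 array left out. Atp2a2 was -0.30, -0.20, -0.13 and -0.13 with slide fixed, slide random, without slides 3 to 5 and with weights, and -0.21 to 0.32 with 1 array left out. The cause was not tested. Signal over background limits the dim genes, of which 939 were kept through other groups only.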
